A study of Homo sapiens with 9 samples.

Results

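The SR proteins and the hnRNPs, the main families of RNA-binding proteins that steer the choice of splice sites, were followed through a metformin dose series in A375 cells. Members were taken by gene symbol among rows whose transcript type includes protein coding: SRSF genes with a number, TRA2A and TRA2B for the SR family, and symbols that begin with HNRNP for the hnRNP family, without readthrough names. This gave 40 genes of 37118, of which 14 were SR genes and 26 were hnRNP genes. HNRNPA1P48 entered by this rule although its symbol is of the pseudogene type. A375 is an established human melanoma cell line, and the labels give its genotype as WT with no transgene or edit. The groups received metformin, a biguanide used against type 2 diabetes, at 40 mM or 20 mM, and the untreated group is labelled 0 mM. Each group had 3 libraries of polyadenylated RNA, 9 in all, with no duration of treatment in the labels. Whether they were separate cultures is not in the labels, and the p-values therefore reflect the spread among libraries alone, part of which may be technical.

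SR proteins carry a domain rich in arginine and serine and usually bind exonic enhancers, where they help recruit the spliceosome to an exon. Most hnRNPs coat nascent transcripts and often act against exon use, so that the balance between the families shapes which exons are kept. SR proteins are switched by phosphorylation, and many SR and hnRNP genes limit their own output through exons that send the transcript to nonsense-mediated decay.

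The library totals ran from 65738242 to 75629413 counts, and the first principal component of log2 CPM (counts scaled to library size), which held 58.0% of the variance, separated the 3 doses. Replicate 3 of 40 mM stood apart, with the lowest total, 4.36% of counts from the mitochondrial genome against 2.76% to 3.77% in the others, and a chi-square per gene of 67.1 and 55.0 against its partners, where other pairs within a dose had at most 26.6. Values that moved by over 1.5 times or changed call without it are also given without it for the members described in full. Of the markers of the lineage, SOX10 averaged 95.8 FPKM and VIM 361 FPKM over the 9 libraries, while the pigment cell genes PMEL, MLANA, TYR and DCT were each under 1 FPKM. The summed level of the 9 lineage markers was 566 to 619 FPKM at 0 mM, 459 to 473 FPKM at 20 mM and 346 to 405 FPKM at 40 mM. VIM, at 254 to 480 FPKM over the 9 libraries, was the largest part of this sum. S100B averaged 8.33 FPKM, S100A1 8.79 FPKM and MITF 2.95 FPKM. Of the 5 lineage markers with a mean of at least 1 FPKM, 2 passed as lower at 40 against 0 mM in the edgeR test below. At 20 against 0 mM 1 passed as lower. Of all tested genes 27.4% and 15.2% were lower in these comparisons. Of 13 markers of epithelial, blood, fibroblast and endothelial cells, 2 reached 1 FPKM, KRT14 and CD68. Their list summed to 11.1 to 12.7 FPKM at 0 mM, 17.6 to 20.6 FPKM at 20 mM and 24.7 to 32.4 FPKM at 40 mM, and the leukocyte marker PTPRC was at or near 0 in every library. Over the 9 libraries CD68 ranged from 3.64 to 22.1 FPKM and KRT14 from 6.02 to 8.98 FPKM. The part of these shifts in the results below was not tested. In bulk libraries, fewer cells with a transcript and less of it per cell cannot be told apart.

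Promoter sequences of RefSeq on GRCh38.p14 were matched by symbol for 35 of the 40 members, and SRSF2, TRA2A, HNRNPA1, HNRNPCL3 and HNRNPA1P48 were not matched. The sequences shown are the 5 hnRNP promoters with an E-box in the stretch printed, a motif that no SR promoter held, HNRNPK and SRSF10, which share a rare palindrome, and SRSF6 and SRSF7, SR genes that fell at both doses. Each run is the 150 bases before the start site, 5′ to 3′ on the gene's strand. Capitals mark matches on either strand to 9 motifs: the E-box CACGTG, the NRF1 motif (in HNRNPM), the ETS motif CCGGAAG, the GC box GGGCGG, the CCAAT box CCAAT, the TATA box TATAAA, the cyclic AMP element TGACGTCA, the E2F motif GGCGGGAA and the ZBTB33 palindrome (in HNRNPK and SRSF10). The GC box and the E2F motif can overlap in 1 stretch. The runs lie at chr4:82373992-82374141 for HNRNPD, chrX:101408072-101408221 for HNRNPH2, chr10:68331543-68331692 for HNRNPH3, chr19:8444825-8444974 for HNRNPM, chr2:177212644-177212793 for HNRNPA3, chr9:83980616-83980765 for HNRNPK, chr1:23980328-23980477 for SRSF10, chr20:43457746-43457895 for SRSF6 and chr2:38751495-38751644 for SRSF7. HNRNPD, HNRNPK, SRSF10 and SRSF7 are on the minus strand and the others on the plus strand.
HNRNPD: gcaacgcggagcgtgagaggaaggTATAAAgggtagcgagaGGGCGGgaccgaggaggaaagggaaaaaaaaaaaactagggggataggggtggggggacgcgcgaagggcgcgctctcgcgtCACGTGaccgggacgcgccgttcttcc
HNRNPH2: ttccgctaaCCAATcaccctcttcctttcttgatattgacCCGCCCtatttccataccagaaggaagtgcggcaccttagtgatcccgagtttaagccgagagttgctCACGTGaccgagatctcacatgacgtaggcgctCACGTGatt
HNRNPH3: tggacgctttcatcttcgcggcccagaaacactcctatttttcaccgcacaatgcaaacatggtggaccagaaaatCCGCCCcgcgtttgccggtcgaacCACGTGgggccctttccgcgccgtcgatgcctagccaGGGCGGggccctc
HNRNPM: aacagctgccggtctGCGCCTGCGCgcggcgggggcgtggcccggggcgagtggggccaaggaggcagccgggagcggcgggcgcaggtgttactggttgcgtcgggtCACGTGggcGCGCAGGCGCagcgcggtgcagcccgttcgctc
HNRNPA3: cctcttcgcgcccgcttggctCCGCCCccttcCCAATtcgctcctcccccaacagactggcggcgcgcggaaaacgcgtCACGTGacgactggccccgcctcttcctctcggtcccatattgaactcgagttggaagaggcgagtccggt
HNRNPK: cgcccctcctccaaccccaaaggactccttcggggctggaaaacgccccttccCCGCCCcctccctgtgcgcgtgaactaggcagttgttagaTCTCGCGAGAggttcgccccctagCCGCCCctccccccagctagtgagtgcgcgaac
SRSF10: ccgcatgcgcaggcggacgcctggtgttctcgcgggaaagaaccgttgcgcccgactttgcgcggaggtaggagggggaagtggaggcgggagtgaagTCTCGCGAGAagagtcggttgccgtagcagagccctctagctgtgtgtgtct
SRSF6: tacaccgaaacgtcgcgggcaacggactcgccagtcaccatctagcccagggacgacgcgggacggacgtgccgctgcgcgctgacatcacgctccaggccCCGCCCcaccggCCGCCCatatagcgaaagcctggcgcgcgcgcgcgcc
SRSF7: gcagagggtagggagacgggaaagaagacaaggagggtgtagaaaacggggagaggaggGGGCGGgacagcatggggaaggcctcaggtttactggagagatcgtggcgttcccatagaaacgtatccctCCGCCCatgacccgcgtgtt

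Over the whole RefSeq window, 250 bases before to 50 after the start, the E-box was found in 0 of 12 SR promoters and 7 of 23 hnRNP promoters, against 7.43% of all 27305 promoters and 10.7% of the promoters of tested genes. The CCAAT box was found in 2 of 12 SR and 15 of 23 hnRNP promoters, against 35.7% of all and 37.8% of tested genes. The NRF1 motif went the other way, with 3 of 12 SR and 1 of 23 hnRNP promoters, against 6.28% of all and 12.7% of tested genes. The GC box was found in 6 of 12 SR and 16 of 23 hnRNP promoters, against 71.1% of tested genes. For the ETS motif these values were 2, 3 and 21.3%, and for the TATA box 2, 3 and 5.06%. For the E2F motif they were 1, 4 and 5.29%, and for the cyclic AMP element 0, 0 and 3.47%. No difference between the families was tested. The palindrome occurred in SRSF10 and HNRNPK, 1 gene of each family, in 0.469% of all promoters and in 1.02% of those of tested genes. The motifs were chosen with values of these data known, and a match is a string of letters, not a bound site. HNRNPA3, the 1 tested member that rose, holds an E-box as HNRNPD, HNRNPH2, HNRNPH3 and HNRNPM do, which fell at 40 mM. Of the 24 matched members that fell at 40 against 0 mM, 6 held an E-box, as did 1 of the 7 tested members that did not fall.

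Both families were lower with metformin, the hnRNPs in more of their genes. Genes with a mean of at least 1 FPKM (fragments scaled to gene length and library size) entered edgeR's quasi-likelihood test as deposited counts, 12394 in all, including 35 members, 13 SR and 22 hnRNP. A gene rose or fell where its Benjamini-Hochberg adjusted p was under 0.05. At 40 against 0 mM, 8 of 13 SR genes fell and 0 rose, and 19 of 22 hnRNP genes fell and 1 rose, where 56.2% of all tested genes were called, 27.4% as lower and 28.8% as higher. With libraries scaled by total counts alone, SRSF4 passed as higher (log2 fold change 0.11, edgeR adjusted p = 0.030), while HNRNPUL1 (0.061) and HNRNPA0 (0.14) were no longer called, which left 17 hnRNP genes lower. The calls over all genes were then 4179 higher and 2806 lower, in place of 3571 and 3391. At 20 against 0 mM, 7 SR genes fell and 0 rose, and 14 hnRNP genes fell and 1 rose, where 31.6% of all tested genes were called, 15.2% as lower and 16.3% as higher. Between the doses, at 40 against 20 mM, 5 SR and 15 hnRNP genes fell and 0 rose in either family, where 29.3% of all tested genes were called, 15.1% as lower and 14.3% as higher. Under total-count scaling and in limma on log2 FPKM, TRA2A passed as higher at 40 against 20 mM (0.13, edgeR adjusted p = 0.044 with total counts), and with total counts 4 SR and 12 hnRNP genes were lower in that comparison. Of all tested genes 1447 were then lower, in place of 1867. Both treated groups are set against the same 0 mM libraries.

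The median log2 fold change at 40 against 0 mM was -0.19 over the tested SR genes and -0.37 over the tested hnRNP genes, beside 0.00 over all tested genes. At 20 against 0 mM the medians were -0.12 for SR and -0.16 for hnRNP genes, and at 40 against 20 mM -0.12 and -0.17, with 0.00 over all genes in each. Without 40 mM replicate 3, 8 SR and 18 hnRNP genes fell at 40 against 0 mM. Of all 12394 tested genes 3504 were then lower, in place of 3391. Without the HNRNPA1 copies HNRNPA1P48 and HNRNPA1L2, 17 of 20 hnRNP genes fell at 40 against 0 mM, with a median of -0.35. When 0 mM replicate 1 or 20 mM replicate 3 was left out, the number of SR genes called at 20 against 0 mM was 4 in place of 7. Calls over all tested genes also dropped in these runs, to 2971 and 2832 in place of 3911. At 40 against 20 mM, leaving out each library in turn left 11 to 14 hnRNP genes lower, in place of 15. Of all tested genes 1266 to 2099 were lower in these runs, in place of 1867.

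**Figure D1:**
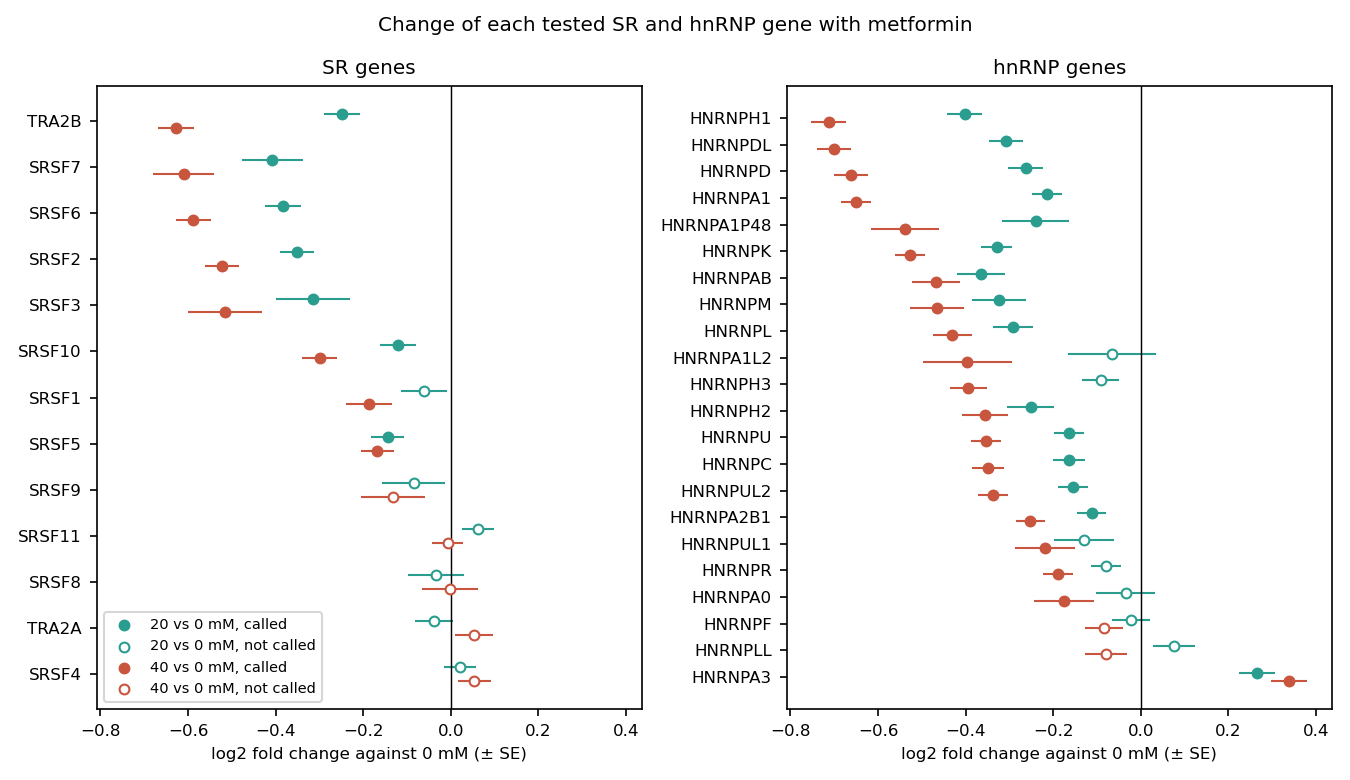
Log2 fold change (x axis, ± SE) of each tested SR gene (left) and hnRNP gene (right) at 20 against 0 mM (green) and 40 against 0 mM (red), with 3 libraries per dose. Filled points passed an adjusted p under 0.05 in edgeR. At 40 mM the SR genes run from -0.63 (TRA2B) to 0.05 (SRSF4) and the hnRNP genes from -0.71 (HNRNPH1) to 0.34 (HNRNPA3).

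Among the SR genes the largest fall at 40 against 0 mM was that of TRA2B, an activator of exons with GAA-rich enhancers. Its gene lies on chromosome 3, 185914558 to 185938029, minus strand. This and the other gene positions are those of the deposited table, for which no source used here names a build. TRA2B stood at 23.0, 23.1 and 24.4 FPKM at 0 mM, 20.2, 20.1 and 19.2 FPKM at 20 mM, and 15.1, 15.7 and 15.9 FPKM at 40 mM. Every 20 mM library was below every 0 mM library, and every 40 mM library below every 20 mM library. It fell by 0.63 ± 0.041 on the log2 scale (SE) at 40 against 0 mM (edgeR adjusted p = 6.6e-07), by 0.25 ± 0.040 at 20 against 0 mM (0.0012) and by 0.38 ± 0.041 at 40 against 20 mM (0.00017). TRA2A, its closest relative, did not pass in any of the 3 comparisons, with 17.9 ± 0.35, 17.4 ± 0.57 and 19.0 ± 0.59 FPKM at 0, 20 and 40 mM (SD, n = 3).

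SRSF3 and SRSF7, small SR proteins that also link spliced mRNA to nuclear export, were both lower. SRSF7 (chromosome 2, 38743599 to 38751494, minus strand) stood at 54.9, 56.8 and 52.7 FPKM at 0 mM, 40.9, 42.6 and 40.7 FPKM at 20 mM, and 39.7, 38.6 and 32.0 FPKM at 40 mM. The 3 doses did not overlap, and replicate 3 was the lowest of the 40 mM libraries. The gene fell by 0.61 ± 0.069 on the log2 scale at 40 against 0 mM (edgeR adjusted p = 3e-05) and by 0.41 ± 0.069 at 20 against 0 mM (0.0015). Its change between the doses, -0.20 ± 0.069, passed at 0.049 but was lost with any of 8 of the 9 libraries left out, at -0.12 without 40 mM replicate 3. SRSF3 (chromosome 6, 36594353 to 36605600, plus strand) stood at 63.0, 62.4 and 60.6 FPKM at 0 mM, 48.6, 51.6 and 49.6 FPKM at 20 mM, and 46.7, 49.5 and 37.0 FPKM at 40 mM, again lowest in 40 mM replicate 3, with the 40 and 20 mM libraries overlapping. It fell by 0.52 ± 0.084 at 40 against 0 mM (edgeR adjusted p = 0.00037), or by 0.40 without that library (1.1e-05). At 20 against 0 mM it fell by 0.31 ± 0.084 (0.016), a call lost when 0 mM replicate 1, 20 mM replicate 1 or 20 mM replicate 3 was left out, with an adjusted p of 0.053, 0.056 and 0.051. Between the doses the value was -0.20 (0.096), with -0.09 (0.11) without 40 mM replicate 3 and -0.28 (0.030) without 40 mM replicate 2.

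SRSF6 and SRSF2, both exonic enhancer binders, were lower in every treated library than in any untreated one. SRSF6 (chromosome 20, 43457893 to 43464243, plus strand) stood at 50.2, 52.5 and 53.3 FPKM at 0 mM, 38.8, 40.9 and 40.1 FPKM at 20 mM, and 35.9, 36.5 and 33.9 FPKM at 40 mM. Its log2 fold change was -0.59 ± 0.041 at 40 against 0 mM (edgeR adjusted p = 1.1e-06), -0.38 ± 0.041 at 20 against 0 mM (7.6e-05) and -0.20 ± 0.041 at 40 against 20 mM (0.0043). SRSF2 (chromosome 17, 76734115 to 76737333, minus strand), the SR gene recurrently mutated in myeloid neoplasms and at 0 mM the highest of the family, stood at 109, 105 and 106 FPKM at 0 mM, 82.6, 83.2 and 85.2 FPKM at 20 mM, and 78.2, 76.3 and 73.2 FPKM at 40 mM. The doses did not overlap, and the gene fell by 0.52 ± 0.039 at 40 against 0 mM (edgeR adjusted p = 1.7e-06), by 0.35 ± 0.039 at 20 against 0 mM (1e-04) and by 0.17 ± 0.039 between the doses (0.0084).

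SRSF1, the founding member of the family, fell at 40 mM and did not pass at 20 mM. It stood at 95.2, 92.2 and 94.8 FPKM at 0 mM, 91.7, 90.3 and 89.0 FPKM at 20 mM, and 88.0, 89.1 and 76.9 FPKM at 40 mM. Its log2 fold change was -0.19 ± 0.052 at 40 against 0 mM (edgeR adjusted p = 0.011), or -0.12 (0.0063) without 40 mM replicate 3, and -0.06 at 20 against 0 mM (0.41). SRSF1 averaged 84.7 ± 6.76 FPKM at 40 mM against 75.9 ± 2.52 FPKM for SRSF2, while at 0 mM the averages were 94.1 ± 1.62 FPKM for SRSF1 and 107 ± 1.92 FPKM for SRSF2 (SD, n = 3). SRSF1 and SRSF2 did not overlap at 0 mM, and at 40 mM the lowest SRSF1 library lay among those of SRSF2.

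SRSF10, a repressor of splicing once it is dephosphorylated, fell by 0.30 ± 0.040 at 40 against 0 mM (edgeR adjusted p = 1e-04), with 17.2 ± 0.44 FPKM at 40 mM and 20.6 ± 0.82 FPKM at 0 mM. SRSF5 fell by 0.17 ± 0.038 in the same comparison (0.0029), with 24.4 ± 0.50 FPKM at 40 mM and 26.8 ± 0.62 FPKM at 0 mM. Both also passed at 20 against 0 mM, at -0.12 for SRSF10 and -0.14 for SRSF5, calls that were lost in 7 and 4 of the 9 runs that left out 1 library. SRSF9, SRSF11, SRSF8 and SRSF4 passed in no comparison, with log2 fold changes at 40 against 0 mM of -0.13, -0.01, 0.00 and 0.05 and SEs of 0.073, 0.036, 0.064 and 0.037. SRSF9 was lowest in 40 mM replicate 3, at 31.4 FPKM, against 38.8 and 37.3 FPKM in the other 40 mM libraries.

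Among the hnRNPs the largest fall was that of HNRNPH1, which binds runs of guanine. HNRNPH1 (chromosome 5, 179614178 to 179634473, minus strand) stood at 74.2, 71.8 and 73.6 FPKM at 0 mM, 57.1, 56.4 and 53.0 FPKM at 20 mM, and 46.4, 45.3 and 45.4 FPKM at 40 mM. No libraries of different doses overlapped. The gene fell by 0.71 ± 0.040 on the log2 scale at 40 against 0 mM (edgeR adjusted p = 2.5e-07), by 0.40 ± 0.040 at 20 against 0 mM (4.5e-05) and by 0.31 ± 0.040 at 40 against 20 mM (0.00039). Its relatives HNRNPH3 and HNRNPH2 fell less at 40 against 0 mM, by 0.39 ± 0.042 and 0.36 ± 0.054. HNRNPF, which binds the same kind of sequence, did not pass in any comparison, with 95.7 ± 4.64 FPKM at 40 mM and 99.0 ± 2.12 FPKM at 0 mM.

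HNRNPD, also known as AUF1 and a binder of AU-rich elements in labile mRNAs, and its relative HNRNPDL fell to a similar degree. They are neighbours on chromosome 4, with 48060 bases between them in the table. HNRNPDL (chromosome 4, 82422564 to 82430408, minus strand) stood at 62.5, 61.6 and 64.9 FPKM at 0 mM, 50.8, 51.1 and 51.1 FPKM at 20 mM, and 38.2, 40.3 and 40.5 FPKM at 40 mM. HNRNPD (chromosome 4, 82352498 to 82374503, minus strand) stood at 63.5, 64.1 and 64.3 FPKM at 0 mM, 55.7, 52.8 and 51.8 FPKM at 20 mM, and 40.3, 42.6 and 41.3 FPKM at 40 mM. In both genes each dose lay wholly below the one before it. At 40 against 0 mM HNRNPDL fell by 0.70 ± 0.039 (edgeR adjusted p = 2.6e-07) and HNRNPD by 0.66 ± 0.040 (4.3e-07), and at 40 against 20 mM they fell by 0.39 ± 0.039 and 0.40 ± 0.040 (both 0.00012). At 20 against 0 mM the values were -0.31 ± 0.039 for HNRNPDL (0.00026) and -0.26 ± 0.040 for HNRNPD (0.00073). HNRNPAB, another relative, stood at 201, 197 and 189 FPKM at 0 mM, 158, 149.9 and 149 FPKM at 20 mM, and 153, 149 and 133 FPKM at 40 mM (chromosome 5, 178204533 to 178211163, plus strand). The treated libraries were all below the untreated ones, while those of 40 and 20 mM overlapped. HNRNPAB fell by 0.47 ± 0.055 at 40 against 0 mM (edgeR adjusted p = 4.1e-05) and by 0.37 ± 0.055 at 20 against 0 mM (0.00075), and its value between the doses was -0.10 ± 0.055 (0.19), or -0.04 (0.45) without 40 mM replicate 3.

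HNRNPA1, a repressor that binds exonic and intronic silencers and the most abundant member by FPKM, stood at 428, 435 and 443 FPKM at 0 mM, 378, 374 and 377 FPKM at 20 mM, and 279.7, 297 and 275 FPKM at 40 mM (chromosome 12, 54280193 to 54287088, plus strand). The 3 doses did not overlap. It fell by 0.65 ± 0.034 at 40 against 0 mM (edgeR adjusted p = 1.7e-07), by 0.21 ± 0.034 at 20 against 0 mM (0.001) and by 0.44 ± 0.034 at 40 against 20 mM (3.9e-05), the largest fall of the tested members between the doses. HNRNPA1P48 (chromosome 16, 51553436 to 51647132, plus strand), a copy of HNRNPA1, stood at 11.7, 11.2 and 10.2 FPKM at 0 mM, 9.53, 9.21 and 9.44 FPKM at 20 mM, and 7.49, 7.47 and 8.44 FPKM at 40 mM. Its doses did not overlap either, and its log2 fold change was -0.54 ± 0.077 at 40 against 0 mM (0.00015), -0.24 ± 0.077 for the lower dose (0.036) and -0.30 ± 0.077 between the doses (0.015). The call at 20 against 0 mM was lost in 5 of the 9 runs that left out 1 library, with values of -0.30 to -0.19, and the call between the doses without 40 mM replicate 2 (adjusted p = 0.051). No source used here says how reads shared by HNRNPA1 and its copies were assigned, so HNRNPA1P48 and HNRNPA1L2 are uncertain. The 43 rows named as HNRNPA1 pseudogenes, HNRNPA1P48 aside, held 2.78% to 3.20% of the summed counts, and the gene plus these rows differed by -0.65 at 40 against 0 mM, as the gene alone did.

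HNRNPK, which binds C-rich RNA and single-stranded DNA, stood at 193, 195 and 194 FPKM at 0 mM, 159, 151 and 154 FPKM at 20 mM, and 135, 138 and 139.8 FPKM at 40 mM (chromosome 9, 83968083 to 83980604, minus strand). The doses did not overlap. Its log2 fold change was -0.53 ± 0.035 at 40 against 0 mM (edgeR adjusted p = 7.5e-07), -0.33 ± 0.035 at 20 against 0 mM (7.1e-05) and -0.20 ± 0.035 at 40 against 20 mM (0.0022). HNRNPA2B1, second in level among the hnRNPs, moved less. It averaged 229 ± 8.23 FPKM at 40 mM and 266 ± 2.18 FPKM at 0 mM, a log2 fold change of -0.25 ± 0.033 (edgeR adjusted p = 8.4e-05), and at 20 against 0 mM its value of -0.11 (0.025) lost its call without any 1 of the 0 mM or 20 mM libraries (0.050 to 0.11).

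The other hnRNPs that fell at 40 against 0 mM were HNRNPM (-0.47), HNRNPL (-0.43), which binds CA repeats, HNRNPA1L2 (-0.40), the nuclear scaffold protein HNRNPU (-0.35), HNRNPC (-0.35), which covers uridine tracts, HNRNPUL2 (-0.34), HNRNPUL1 (-0.22), HNRNPR (-0.19) and HNRNPA0 (-0.18). HNRNPA0 was borderline (edgeR adjusted p = 0.047) and lost its call in 7 of the 9 runs that left out 1 library, at -0.09 without 40 mM replicate 3. HNRNPUL1 overlapped between the doses, because 40 mM replicate 3 stood at 61.9 FPKM against 51.1 and 51.0 FPKM in its partners. Without that library HNRNPUL1 had a log2 fold change of -0.32 (edgeR adjusted p = 2.2e-05), and its call was lost without 0 mM replicate 2 or 3 or 40 mM replicate 1 or 2 (adjusted p up to 0.078). HNRNPLL, known for CD45 splicing in T cells, did not pass against 0 mM at either dose, with 7.10 ± 0.18 FPKM at 40 mM and 7.33 ± 0.24 FPKM at 0 mM. Between the doses HNRNPLL fell by 0.16 ± 0.048 (edgeR adjusted p = 0.031), with all 40 mM libraries below the 20 mM libraries, and this call was lost in 4 of the 9 runs that left out 1 library. The calls of HNRNPL, HNRNPR and HNRNPA1L2 between the doses were lost in 8, 6 and 4 of these runs.

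HNRNPA3 was the 1 tested member that rose. It stood at 71.5, 69.9 and 71.1 FPKM at 0 mM, 89.0, 84.5 and 82.6 FPKM at 20 mM, and 93.7, 93.2 and 88.4 FPKM at 40 mM (chromosome 2, 177212563 to 177223958, plus strand). Every treated library was above every untreated one, and the 40 and 20 mM libraries overlapped. The log2 fold change was 0.34 ± 0.041 at 40 against 0 mM (edgeR adjusted p = 4.6e-05), 0.27 ± 0.041 at 20 against 0 mM (0.00081) and 0.07 ± 0.041 between the doses (0.20). Rows named as HNRNPA3 pseudogenes, 10 in number, held 2.05% to 2.70% of the summed counts, and the gene plus these rows differed by 0.34 at 40 against 0 mM.

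**Figure D2:**
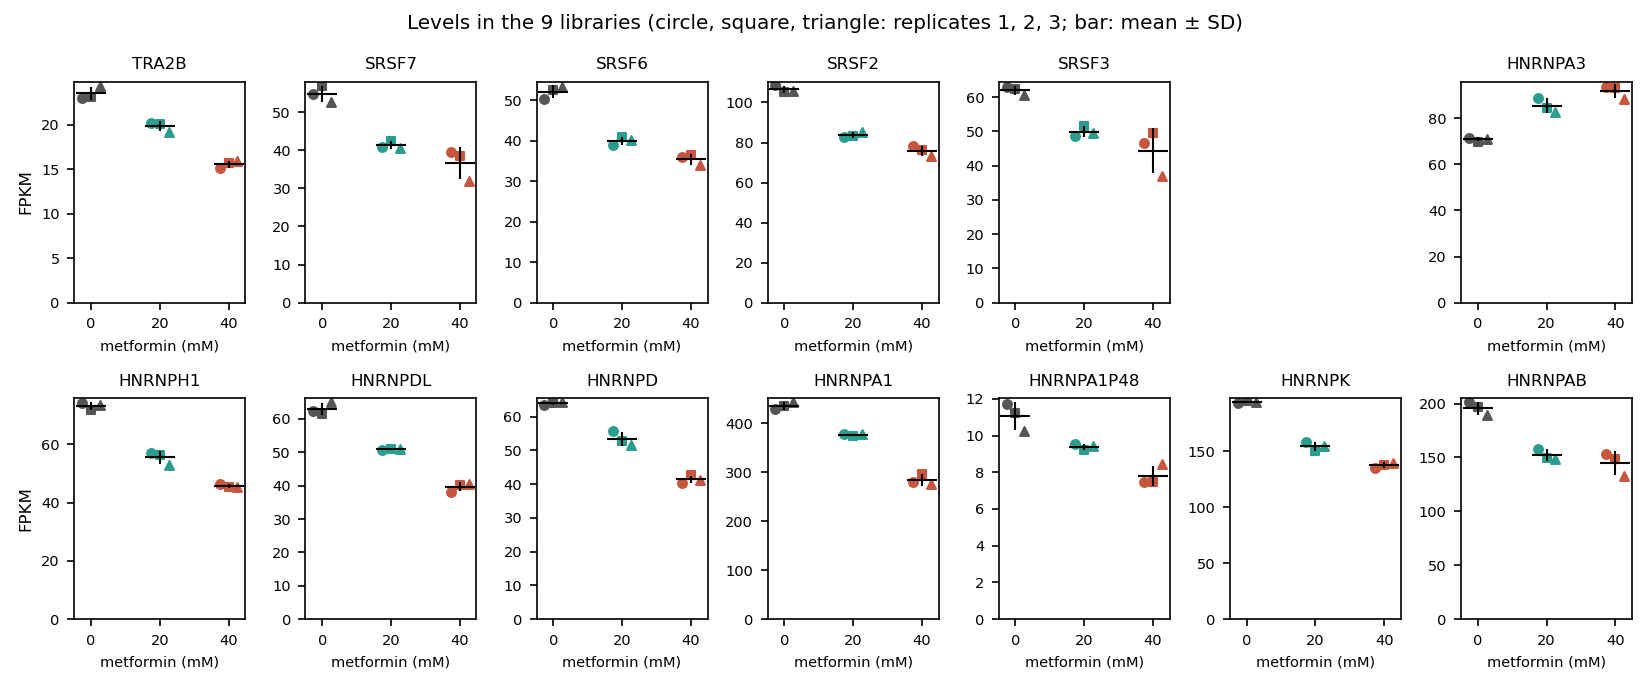
FPKM (y axis, from 0) of the 13 members described in full, by metformin dose in mM (x axis), with a symbol for each of 3 replicates and a bar for mean ± SD. HNRNPA3 lies higher in all treated libraries, the other genes lower. Replicate 3 of 40 mM is the lowest for SRSF3, at 37.0 FPKM, and for SRSF7, at 32.0 FPKM.

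The levels of the families per library were set beside each other. Summed over members, SR genes held 545 ± 2.56 FPKM at 0 mM, 472 ± 4.79 FPKM at 20 mM and 439 ± 25.3 FPKM at 40 mM (SD, n = 3). The hnRNP genes held 2056 ± 1.81 FPKM, 1800.2 ± 26.1 FPKM and 1592 ± 39.8 FPKM at 0, 20 and 40 mM. At 40 against 0 mM the SR sum dropped by 19.4% and the hnRNP sum dropped by 22.6%. At 20 against 0 mM the SR sum dropped by 13.4% and the hnRNP sum dropped by 12.5%. These are differences of sums, with no test, and abundant genes weigh most in them. HNRNPA1, the largest part of the hnRNP sum, averaged 436 FPKM at 0 mM and 284 FPKM at 40 mM. The SR sum in 40 mM replicate 3 was 410 FPKM, against 453 and 455 FPKM in the other 40 mM libraries.

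The ratio of SR to hnRNP genes was higher at 40 mM by the mean of the single genes, less clearly by the sums. The mean log2 CPM of tested SR genes minus that of tested hnRNP genes was -0.64, -0.63 and -0.69 in the 40 mM libraries, against -0.75, -0.74 and -0.73 in the 0 mM libraries, with -0.76, -0.72 and -0.74 at 20 mM. The 40 mM values lay above the others, with replicate 3 nearest to them. The summed hnRNP FPKM divided by the summed SR FPKM was 3.54, 3.57 and 3.78 in the 40 mM libraries and 3.75, 3.78 and 3.79 in the 0 mM libraries, which overlap through replicate 3. No test was made of these differences over the members, since the genes of a family are not replicates of a dose.

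Within each family, close relatives parted. The level of HNRNPA3 relative to HNRNPA1 in the same library was 0.163 at 0 mM, 0.227 at 20 mM and 0.323 at 40 mM as a mean ratio of FPKM. TRA2A relative to TRA2B was 0.760 at 0 mM, 0.878 at 20 mM and 1.22 at 40 mM, so that TRA2A was below TRA2B in all untreated and 20 mM libraries and above it in all 40 mM libraries. SRSF4 relative to SRSF6 was 0.269, 0.357 and 0.420 at 0, 20 and 40 mM. HNRNPF relative to HNRNPH1 was 1.35, 1.76 and 2.09 over the same doses. Other pairs kept their proportion, with HNRNPD relative to HNRNPDL at 1.02, 1.05 and 1.04 and HNRNPUL2 relative to HNRNPU at 1.32, 1.33 and 1.34. These ratios are descriptions, since each compares genes already tested one by one.

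**Figure D3:**
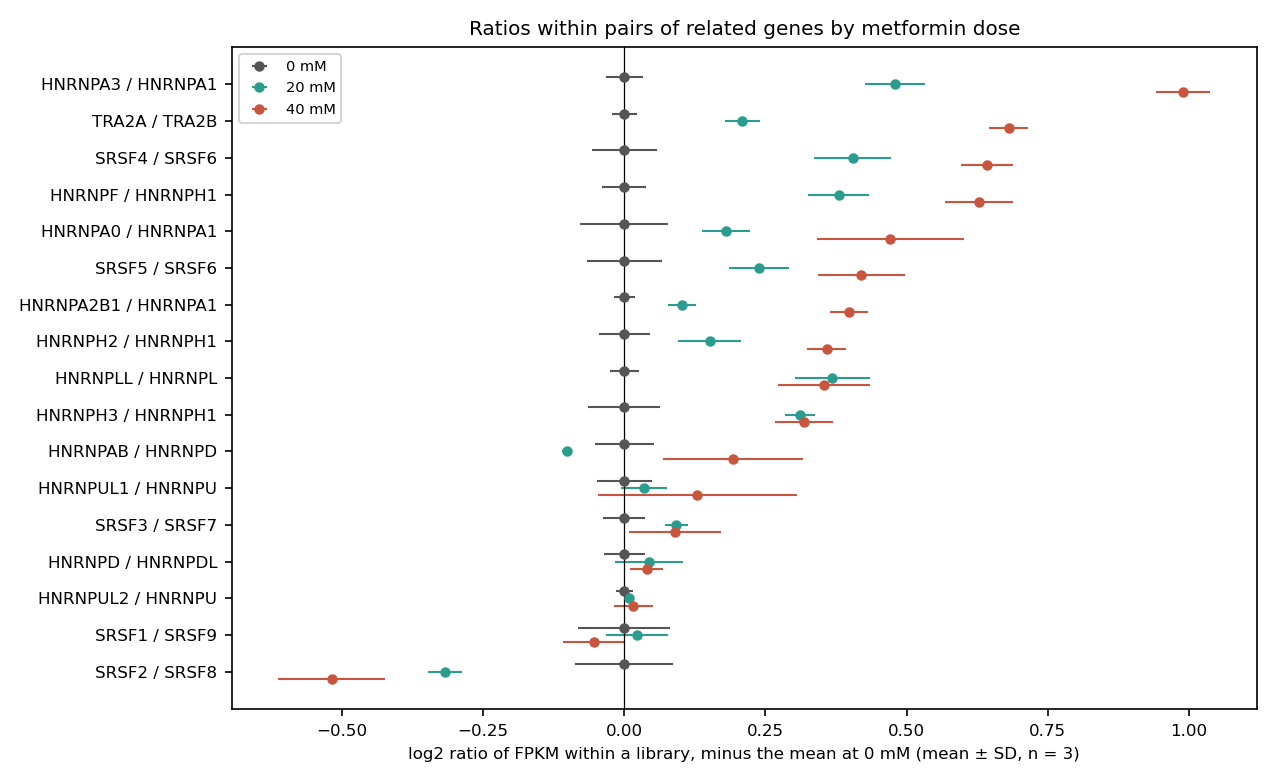
Log2 ratio of FPKM between 2 related genes in the same library, minus its mean at 0 mM (x axis; mean ± SD, n = 3 libraries per dose), for 17 pairs (y axis) at 0, 20 and 40 mM. The largest shift is that of HNRNPA3 / HNRNPA1, whose log2 ratio averaged -2.62 at 0 mM and -1.63 at 40 mM, and HNRNPUL2 / HNRNPU stays near 0.

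The other 5 members were under 1 FPKM in mean and were not tested. SRSF12, an SR protein known from testis and brain, had 26, 19 and 0 counts at 0 mM, 22, 35 and 21 counts at 20 mM, and 25, 22 and 0 counts at 40 mM. The HNRNPC-like genes HNRNPCL3 and HNRNPCL4 had at most 7 counts in any library. HNRNPCL1 had 13, 10 and 19 counts at 40 mM against 0, 0 and 0 at 0 mM, and HNRNPCL2 had 13, 9 and 7 at 40 mM against 0, 0 and 0 at 0 mM. With no filter on FPKM these last genes passed as higher at 40 against 0 mM (edgeR adjusted p = 0.045 for HNRNPCL1 and 0.040 for HNRNPCL2). Both belong to a cluster of near-identical copies on chromosome 1 and are reported as uncertain.

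Genes that act with the families moved unevenly. Their lists were described by counts at 40 against 0 mM, where 27.4% of all tested genes were called lower and 28.8% higher. Of 13 tested hnRNPs and related proteins under other symbols, 10 fell and 0 rose, with a median of -0.25 beside 0.00 for all genes. RBMX, which is hnRNP G, fell by 0.81 ± 0.033 (edgeR adjusted p = 4e-08), and TAF15, an RNA-binding protein that also associates with the general transcription factor TFIID, by 0.90 ± 0.048 (1.8e-07). Of 39 core spliceosome proteins 24 fell and 3 rose, with a median of -0.17. Both leading genes belong to the U2 snRNP: SNRPB2 fell by 0.64 ± 0.044 (1.1e-06), and SNRPA1, its partner in the particle, rose by 0.50 ± 0.044 (5e-06).

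Of 27 SR-related proteins, which carry stretches of arginine and serine without being SR proteins, 12 fell and 5 rose, with a median of -0.08. RSRP1 rose by 0.77 ± 0.078 (edgeR adjusted p = 1.3e-05) and THRAP3 fell by 0.46 ± 0.049 (2e-05). Of 12 SR protein kinases, phosphatase partners and import receptors, 4 fell and 5 rose, with a median of 0.11. TNPO3, the import receptor of SR proteins, rose by 0.21 ± 0.036, and TNPO2, another import receptor, fell by 0.21 ± 0.037 (edgeR adjusted p = 0.00061 for both). TNPO1, an import receptor as TNPO2 is, rose by 0.25 ± 0.061 (edgeR adjusted p = 0.0048), so the import receptors did not move in 1 direction. Of the 4 CLK kinases, which phosphorylate SR proteins in the nucleus, 3 fell, CLK4 by 0.44 ± 0.104 (edgeR adjusted p = 0.0042), CLK2 by 0.34 ± 0.075 (0.0027) and CLK3 by 0.17 ± 0.049 (0.013), and CLK1 had a log2 fold change of 0.06 (0.66). Of the SRPK kinases, which act mainly in the cytoplasm, SRPK2 rose by 0.19 ± 0.044 (0.0036) and SRPK1 had -0.04 (0.48). Among the other kinases of the list, DYRK1A rose by 0.37 ± 0.069 (edgeR adjusted p = 0.00088) and PRPF4B by 0.17 ± 0.039 (0.0042). DYRK1B had 0.17 (0.25). Levels were low for CLK4, at means of 1.95 FPKM at 0 mM and 1.47 FPKM at 40 mM, for CLK3, at 2.35 and 2.14 FPKM, and for DYRK1A, at 1.20 and 1.58 FPKM.

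Of 17 tissue and signal dependent splicing regulators 4 fell and 5 rose, with a median of 0.00. MBNL2 rose by 0.72 ± 0.052 (edgeR adjusted p = 1.3e-06), and CELF1, which acts against the MBNL proteins at many exons, rose by 0.43 ± 0.036 (3.1e-06). Of 15 proteins of nonsense-mediated decay and the exon junction complex, 7 fell and 4 rose, with a median of -0.13. CASC3, a core protein of that complex, rose by 0.47 ± 0.041 (4.9e-06), and SMG9, which binds the decay kinase SMG1, fell by 0.43 ± 0.042 (1.1e-05). A transcript annotated for nonsense-mediated decay was listed for 13 of 13 tested SR genes and 12 of 22 tested hnRNP genes, against 42.0% of the 10597 tested protein-coding genes. A retained-intron transcript was listed for 10 SR and 15 hnRNP genes, against 58.8%. The table gives 1 value per gene, so the share of such transcripts was not measured.

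**Figure D4:**
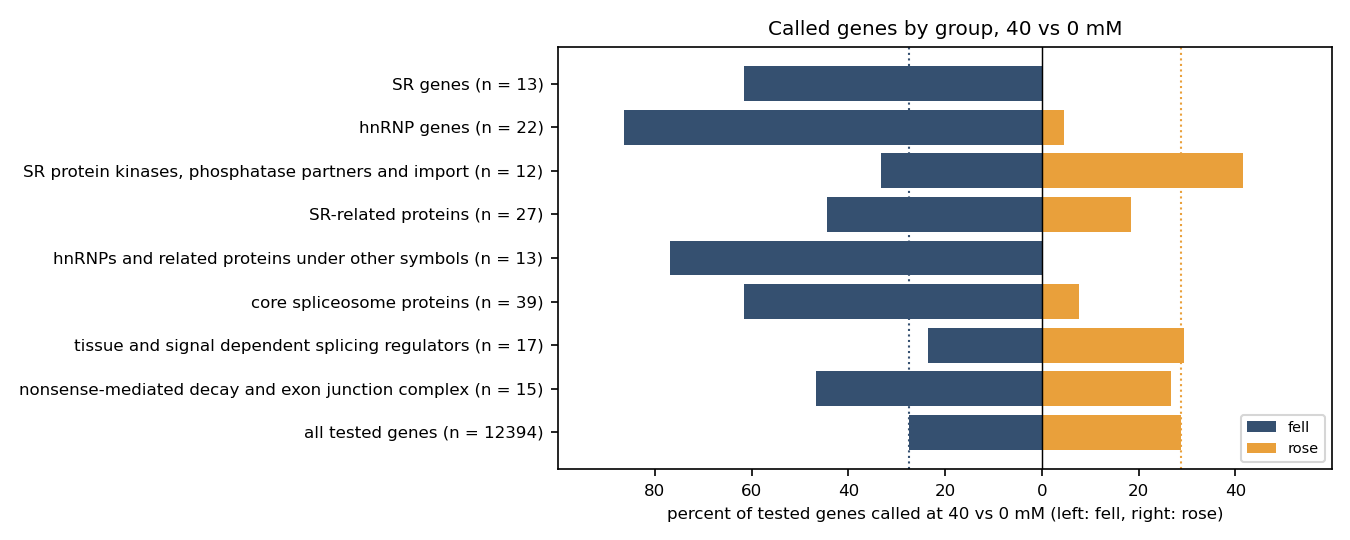
Percent of tested genes that fell (blue, left) or rose (orange, right) at 40 against 0 mM for SR genes, hnRNP genes, 6 lists of genes that act with them, and all tested genes (y axis, with the number tested). Dotted lines mark all tested genes, at 27.4% lower and 28.8% higher. The hnRNP bar reaches 86.4% and the SR bar 61.5% on the falling side.

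Overlapping genes could share reads with some members. Of the 35 tested members 12 overlap another tested gene in the table's positions, and 0 are overlapped by a gene with an FPKM as high as their own. The closest case was HNRNPH2, at a mean of 31.5 FPKM, with the readthrough RPL36A-HNRNPH2 on the same strand at 21.7 FPKM. The libraries are strand-specific per the labels' protocols, but no source used here says whether the counting used the strand, so reads of genes on opposite strands, such as HNRNPUL1 and TGFB1, may not have been kept apart.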

How the data were processed

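RNA sequencing of 9 A375 libraries was analysed, 3 per metformin dose. Per the labels' protocols, polyadenylated RNA was made into strand-specific paired-end libraries. The authors deposited 1 table with raw read counts and FPKM for each gene and library, as its headers say. The submitters' processing notes list StringTie 2.1.6 without its role, and no source used here names the aligner, annotation, genome build or counting strand. The members, gene lists, pairs and motifs were chosen with earlier results of these data known.

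Genes with a mean of at least 1 FPKM were tested (12394 of 37118) with edgeR 4.0.16 in R 4.3.3: TMM scaling, all 9 libraries in 1 quasi-likelihood fit, Benjamini-Hochberg adjustment over all tested genes, called under 0.05. Standard errors were computed from the fold change and the F statistic. Depth was 65738242 to 75629413 counts, and intervals from counting alone were not used. Sums, medians and ratios of members have no test. The script was tested on simulated counts, where 62% to 67% of 1.4-fold changes and 90% to 92% of 2-fold changes were recovered. Of the calls in these runs 3.64% to 6.17% were false, with the highest share at 20 against 0 mM. Each run changed 100 genes at each fold among 12394, a smaller share than was called in the data. The shares recovered and false therefore do not give the power or error of the reported calls.

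Members were named in full where they were among the 5 largest called changes of a family in each direction at 40 against 0 mM, or the 3 largest in another comparison, with at least 5 FPKM at the higher dose mean. From each list the 2 called genes of smallest p were named. The CLK, SRPK and DYRK kinases, PRPF4B and TNPO1 were added after their values were seen. Alternatives were no filter or 5 FPKM, RLE or total-count scaling, DESeq2 1.42.0, limma 3.58.1 on log2(FPKM + 1) or log2(FPKM + 0.1), 6 libraries only, a replicate block, a threshold of 0.01 and leaving out each library. Promoter sequences come from RefSeq (GRCh38.p14). A gene of a companion list is not reported here, and the list's counts leave it out.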

Additional observations from a re-analysis of the deposited data

How the results depend on the processing

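Of the log2 fold changes of the 35 tested members under all alternatives, 1838 kept direction and call, 125 lost their call, 13 gained one and 19 changed sign. The sign changes were all in comparisons in which the member had not passed. At 40 against 0 mM SRSF11 was 0.0171 with a filter at 5 FPKM, 0.0448 with total-count scaling, and 0.0257 and 0.0266 in limma on log2(FPKM + 1) and log2(FPKM + 0.1). SRSF8 was 0.0222, 0.0503, 0.0265 and 0.0290 in the same order. At 40 against 20 mM SRSF5 was 0.0127 with total counts, and 0.0069 and 0.0072 in limma. The cause was not tested.

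With a filter at 5 FPKM 6983 genes were tested, in place of 12394. The calls over all tested genes then numbered 4245 for 40 against 0 mM, in place of 6962. They numbered 2517 for 20 against 0 mM, in place of 3911, and 2367 between the doses, in place of 3637. Under an adjusted p of 0.01, 4 SR genes were called at 20 against 0 mM, and of all genes 2167 there and 1858 between the doses. With no filter the members under 1 FPKM entered the medians, which then covered 14 SR and 26 hnRNP genes. At 40 against 20 mM these added members had log2 fold changes of -0.81 (SRSF12) and 0.56 to 6.27 (HNRNPC-like genes). The SR median minus the hnRNP median at 40 against 20 mM was then -0.0067 in place of 0.0446. The part of the added members in this was not tested. In that comparison total-count scaling split all calls into 2309 higher and 1447 lower, limma on log2(FPKM + 1) into 2112 and 1416, and limma on log2(FPKM + 0.1) into 2076 and 1418, in place of 1770 and 1867. The median of all genes was farthest from its reported value under total-count scaling at 40 against 0 mM, at 0.0509 in place of -0.00076.

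Leaving out each library in turn gave 4 to 7 SR genes called at 20 against 0 mM, and 2731 to 4966 of all tested genes. All genes called at 40 against 20 mM ranged from 2408, without 20 mM replicate 2, to 4065. The SR median minus the hnRNP median ranged from 0.163 to 0.196 at 40 against 0 mM, and from 0.0222 to 0.122 between the doses, highest without 40 mM replicate 3. At 40 against 0 mM SRSF11 ranged from -0.0192 to 0.0092 and SRSF8 from -0.0515 to 0.0645. At 20 against 0 mM HNRNPA0 ranged from -0.0549 to 0.0058 and SRSF8 from -0.0562 to 0.0021. Between the doses SRSF9 ranged from -0.107 to 0.0362 and SRSF8 from -0.0175 to 0.0986.

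The replicate numbers were not treated as pairing, since the labels name none. Same-numbered libraries of different doses had deviations correlated at -0.042 to 0.222 (mean 0.068). For libraries with different numbers the range was -0.222 to 0.088 (mean -0.034), so a weak pairing was not excluded. With the number as a replicate block, 6, 8 and 6 SR genes and 15, 20 and 16 hnRNP genes were called at 20 against 0, 40 against 0 and 40 against 20 mM. Of all genes 4245, 7215 and 3982 were called in the same order, in place of 3911, 6962 and 3637. At this depth the spread between libraries, not counting, limits the members described, and the HNRNPC-like genes and SRSF12 are too low to be followed.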
